A study of Rattus norvegicus with 24 samples.

Results

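Exposure to glutamate was compared with fresh medium in cultured rat cortical cells that had all been given AH236, an agent known here by its code name alone. The members were chosen by sample title: 3 libraries from AH236 cultures in glutamate medium and 3 from AH236 cultures in fresh growth medium, 6 of the 24 RNA-seq libraries in the series. Cells were grown for 8 days in coated 6-well plates before the medium was exchanged for glutamate medium (250 μM final) or fresh growth medium, and the wells were then imaged for 4 h. The other 18 libraries came from cultures given DMSO, IS141 or AH609, with 3 libraries per treatment and medium. Dose and timing of AH236, strain and age of the animals and the time of RNA harvest are absent from the labels. It is not stated whether the 3 libraries of a group are from different cultures; the p-values refer to library-to-library spread alone, and this may be technical.

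Glutamate is the main excitatory transmitter of the cortex, and it opens ion channels and activates coupled receptors on neurons. Calcium that enters through NMDA receptors drives a rapid wave of activity-dependent transcription, and an excess of it injures neurons, a process called excitotoxicity. A cortical culture usually also holds glia, which take glutamate up. In bulk RNA of such a culture, fewer cells of a type and less RNA per cell cannot be told apart.

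The gene IDs of the count table were paired with no gene names here. The rows are therefore described by level and size of change, cortical cell markers were not checked, and 4 genes are given by their Ensembl IDs. Totals ran from 29238059 to 33372053 counts in the AH236 medium libraries and from 23906256 to 31661697 in the AH236 glutamate libraries. Replicates were close, with a Pearson r of log2 CPM (CPM, counts scaled to the size of the library) across genes between 0.9926 and 0.995 within the groups and between 0.953 and 0.9562 across them. The spread between replicates, as the biological coefficient of variation of each group, was 5.67% in AH236 medium and 5.14% in AH236 glutamate. It was 16.2% in DMSO medium, where replicate 1 stands apart. The first principal component of the 6 AH236 libraries held 82.9% of their variance and separated the media, with scores from -55.9 to -50.9 in medium and from 52.8 to 54.2 in glutamate. DMSO medium replicate 1 entered both the shared estimate of the spread and the DMSO changes.

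Glutamate moved most of the transcriptome of AH236 cultures, and most of the changes were small. Of 15908 genes tested, 60.6% were called at an adjusted p under 0.05 (edgeR quasi-likelihood test), with 4689 genes (29.5%) higher and 4959 (31.2%) lower in glutamate. The median called rise was 1.50-fold and the median called fall 1.49-fold. The larger changes differed more, since 25% of the called rises exceeded 2.28-fold and 25% of the called falls exceeded 1.86-fold. Rises of at least 2-fold numbered 1461 (9.18% of the genes tested) and falls 974 (6.12%). At 4-fold the counts were 543 rises and 82 falls, and at 8-fold 245 rises and 9 falls. The 3 glutamate libraries lay above all 3 medium libraries for 5247 genes (33% of those tested) and below them for 5561 (35%). Among the called genes, 4552 rises and 4847 falls had groups that did not overlap.

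The order of the counts depended on scaling. TMM scaling, which assumes that most genes do not change, left the genes tested with a median log2 change of -0.01. With library totals alone that median was -0.21, and 2971 genes were called higher against 7055 lower. Changes of at least 2-fold were then 1133 rises and 1614 falls, the opposite order. With RLE size factors 4876 genes were higher and 4795 lower, and 1481 rose against 933 that fell at least 2-fold. DESeq2 likewise called slightly more genes higher, 4786 against 4677. Directions and counts are therefore relative to TMM scaling unless another is named.

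**Figure D1:**
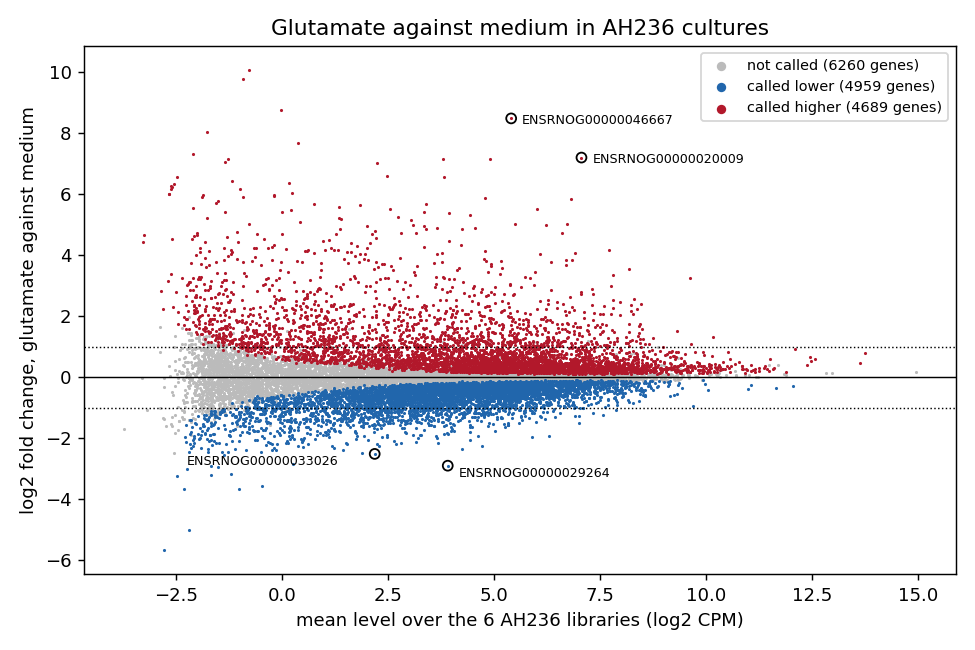
Log2 fold change in glutamate against medium (vertical axis) by mean level over the 6 AH236 libraries in log2 CPM (horizontal axis), 1 point per gene, with dotted lines at 2-fold and the 4 named genes ringed. Above 8 log2 CPM 32 genes rose and 0 fell at least 2-fold (22 and 3 with library totals alone), and the largest changes lie at lower levels.

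The direction of the change differed between classes of gene level. Genes were put in 6 classes by their mean log2 CPM over the 6 AH236 libraries. That mean includes the glutamate libraries, so the change of a gene helps to set its class. Classes by the level in medium alone are not given. In the 697 genes above 8 log2 CPM, the most abundant transcripts, 412 were called higher and 90 lower, and the median log2 fold change was 0.22. In the 2485 genes from 6 to 8 log2 CPM, 1064 were higher and 728 lower. The order turned below that level. From 4 to 6 log2 CPM 1407 genes were higher and 1659 lower, and from 2 to 4 log2 CPM 812 were higher and 1453 lower, with a median log2 fold change of -0.14. From 0 to 2 log2 CPM 540 were higher and 711 lower. Below 0 log2 CPM 454 were higher and 318 lower, and only 29.2% of the genes were called, against 72.0% above 8 log2 CPM. With library totals alone lower genes outnumbered higher ones in every class, so the order turned in the classes above 6 and below 0 log2 CPM. In the most abundant class 195 genes were then higher and 215 lower (median log2 fold change 0.02). The difference between classes was still present under that scaling, since from 2 to 4 log2 CPM 579 genes were then higher and 1863 lower, with a median of -0.34.

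**Figure D2:**
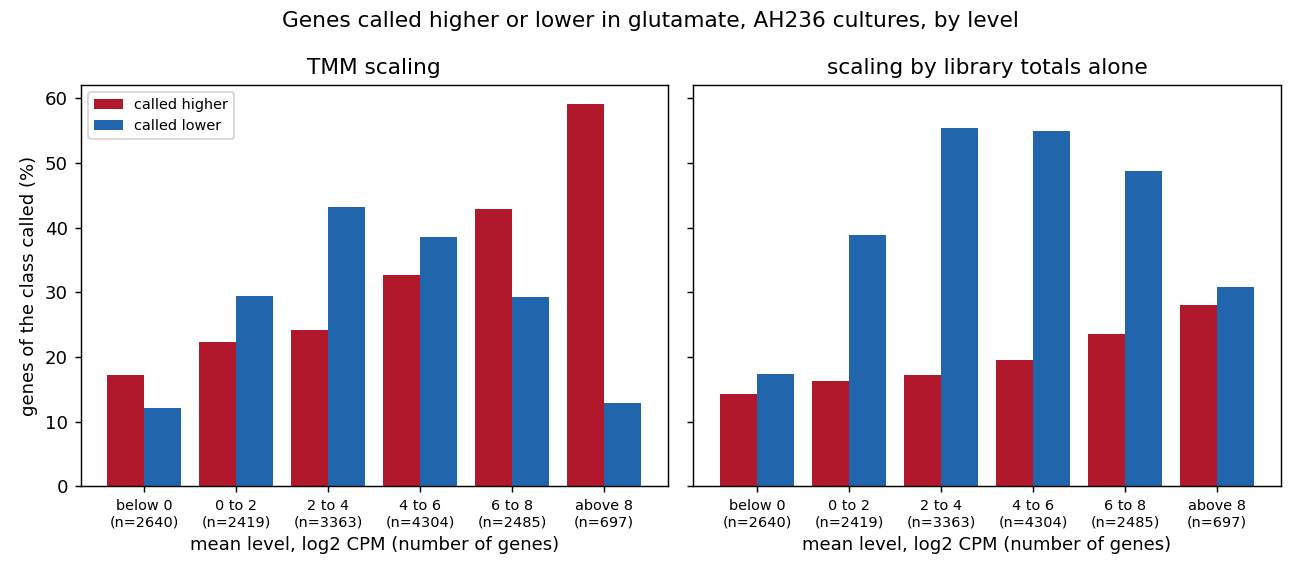
Percentage of genes called higher (red) or lower (blue) in glutamate in each class of mean level in log2 CPM, with TMM scaling (left) and with scaling by library totals alone (right). With TMM scaling calls in the most abundant class were 59.1% higher and 12.9% lower, and with library totals 28.0% higher and 30.8% lower.

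Estimated sizes of change, over called and uncalled genes together, ran the other way. The median size of the log2 fold change was 0.25 above 8 log2 CPM, 0.32 from 4 to 6 and 0.51 from 0 to 2. It was 0.6 below 0 log2 CPM, where only 29.2% of the genes were called. Sampling noise, which is larger at low counts, adds to such sizes and was not separated from them. Above 8 log2 CPM 32 genes rose at least 2-fold and 0 fell at least 2-fold (22 and 3 with library totals alone). From 2 to 4 log2 CPM 268 genes rose and 289 fell at least 2-fold (217 and 514 with library totals alone). With TMM scaling, falls of at least 2-fold outnumbered rises in that class only. From 4 to 6 log2 CPM, 285 rose and 142 fell at least 2-fold (206 and 278 with library totals alone). From 6 to 8 log2 CPM, 162 rose and 20 fell (111 and 63 with library totals alone). In the low classes, 303 rose and 279 fell from 0 to 2 log2 CPM, and 411 rose and 244 fell below 0. With library totals alone falls outnumbered rises in both, with 248 rises and 408 falls from 0 to 2 and 329 and 348 below 0.

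A small set of genes was close to silent in medium. With at most 3 counts in each AH236 medium library and at least 30 in each AH236 glutamate library, 13 genes were found, all of them called higher. This choice was made from the same libraries, so their rise is a description. Together the 13 genes held 12 to 15 counts in a medium library and 1061 to 1523 in a glutamate library, and none passed a mean of 13.1 CPM in glutamate. The same limits were met by 7 of these genes in AH609 cultures, by 3 in IS141 cultures and by 3 in DMSO cultures (7 without DMSO replicate 1 in medium). Choice of the genes in AH236 libraries favours lower counts elsewhere, so these counts do not mark the genes as particular to AH236. Genes that met the limits in another treatment but not with AH236 were not counted. In the opposite direction 0 genes met the limits.

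The 4 genes given by ID had the largest rises and falls among called genes that averaged 1 log2 CPM or more and had groups that did not overlap. ENSRNOG00000046667 stood at 2.19, 2.82 and 1.63 CPM in the 3 AH236 medium libraries and at 778, 785 and 825 CPM in the 3 glutamate libraries. The medium libraries held between 55 and 101 counts of it, so it was low there but above silence. Its log2 fold change was 8.48 ± 0.47 (SE; edgeR adjusted p = 4.78e-11). ENSRNOG00000020009 stood at 10.1, 11.1 and 11.6 CPM in medium and at 1623, 1552 and 1651 CPM in glutamate, a narrow range in each group. Its log2 fold change was 7.20 ± 0.22 (SE; edgeR adjusted p = 5.78e-15). The ratio of the group means was 359 for the first gene and 147 for the second.

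The largest falls were far smaller than these rises, with ratios of the group means of 7.52 and 5.69. ENSRNOG00000029264 stood at 40.7, 40.9 and 40.9 CPM in medium and at 6.08, 4.58 and 5.63 CPM in glutamate. Its medium libraries were nearly equal, and its log2 fold change was -2.90 ± 0.25 (SE; edgeR adjusted p = 1.51e-08). ENSRNOG00000033026 stood at 10.4, 10.2 and 11.2 CPM in medium and at 1.87, 2.06 and 1.65 CPM in glutamate. Its log2 fold change was -2.52 ± 0.15 (SE; edgeR adjusted p = 7.46e-14). Both genes kept a measurable level in glutamate, with at least 45 counts in each library.

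**Figure D3:**
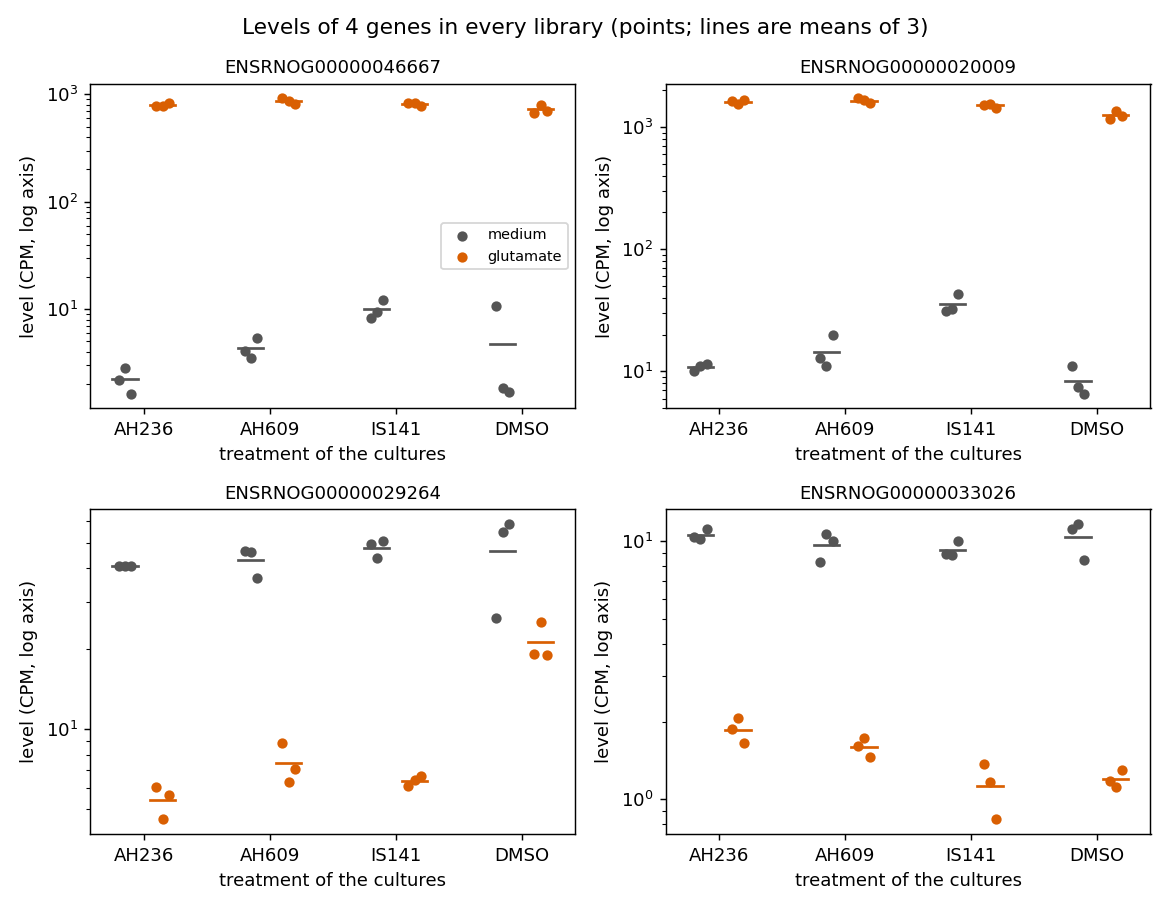
Level in CPM (vertical log axis) of the 4 genes in every library of the series, by treatment of the cultures (horizontal axis), with medium in grey, glutamate in orange and lines at the means of 3 libraries. In AH236 cultures the 2 groups are far apart for each gene, and ENSRNOG00000029264 in DMSO cultures shows the smallest gap.

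These 4 genes were then set beside the cultures given other agents. They were chosen by their AH236 changes, which favours larger changes with AH236 in these comparisons. The fall of ENSRNOG00000029264 was -2.90 ± 0.24 (SE) in IS141 cultures and -2.53 ± 0.24 (SE) in AH609 cultures, but -1.14 ± 0.21 (SE) in DMSO cultures. The AH236 fall was larger than the DMSO fall by a log2 difference of -1.76 ± 0.33 (SE; edgeR adjusted p = 0.015). DMSO replicate 1 in medium had 26.1 CPM of this gene against 54.8 and 58.6 CPM in the other DMSO medium libraries, and without it the difference was -1.47 (edgeR adjusted p = 3.79e-05). In glutamate the DMSO libraries held 19.1, 25.3 and 19.0 CPM, all above the highest AH236 glutamate library at 6.08 CPM. ENSRNOG00000020009 rose more in AH236 than in IS141 cultures, by 1.79 ± 0.24 (SE; edgeR adjusted p = 0.000705). Its glutamate levels were 1609 ± 51.2 CPM (SD, n = 3) with AH236 and 1502 ± 53.1 CPM (SD, n = 3) with IS141, while its medium levels were 10.9 ± 0.737 CPM (SD, n = 3) and 35.5 ± 6.60 CPM (SD, n = 3). With TMM scaling the libraries of these 2 cultures did not overlap in either medium, but in glutamate the gap was very narrow. By library totals alone they overlapped in glutamate. There AH236 glutamate replicate 2 held 33909 counts of this gene in a total of 23906256, and IS141 glutamate replicate 2 held 41074 in 27995577, a larger share. The TMM values were as follows. The lowest IS141 value in medium was 31.1 CPM against a highest AH236 value of 11.6 CPM, while in glutamate the highest IS141 value was 1550.5 CPM against a lowest AH236 value of 1552 CPM. None of the 4 genes was called against the mean of the 3 other treatments, where the differences were 1.39, 0.71, -0.71 and 0.40 in the order above (edgeR adjusted p = 0.209, 0.105, 0.274 and 0.318). Without DMSO replicate 1 in medium, ENSRNOG00000046667 was called at 0.92 (edgeR adjusted p = 0.02) and ENSRNOG00000029264 at -0.61 (edgeR adjusted p = 0.0227). Without all 6 DMSO libraries, and so against IS141 and AH609 alone, ENSRNOG00000046667 was called at 1.48 (edgeR adjusted p = 0.00126) and ENSRNOG00000020009 at 1.08 (edgeR adjusted p = 0.00727), while ENSRNOG00000029264 was at -0.19 and not called.

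Genes that glutamate changed at least 2-fold in both IS141 and AH609 cultures were mostly called in the same direction in AH236 cultures. The AH236 libraries were not used to choose them except through the shared fit. Of 1135 such genes that rose, 1054 were called higher and 0 lower with AH236, against 29.5% called higher over all genes tested. Their median log2 fold change was 1.85 with AH236, with quartiles of 1.33 and 2.74, against -0.01 for all genes. Of 629 genes that fell, 606 were called lower and 0 higher, against 31.2% called lower over all genes, with a median of -1.35 and quartiles of -1.63 and -1.15. In the AH236 libraries, glutamate lay wholly above medium for 1061 of the 1135 (33% of all genes) and wholly below it for 612 of the 629 (35% of all genes). The 81 and 23 members that were not called complete the lists.

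In DMSO cultures the same lists had median log2 fold changes of 1.64 and -1.19. The medians were 1.82 and -1.35 in AH609 cultures, close to those with AH236, and 1.64 and -1.27 in IS141 cultures. The AH609 and IS141 cultures were used to choose the lists, which favours larger medians there. The rise was larger with AH236 than with DMSO for 70.2% of the raised genes, where 49.3% of all genes tested had the more positive change with AH236. The fall was larger for 70.4% of the lowered genes, where 50.7% of all genes had the more negative change. For the raised genes this difference rested largely on DMSO replicate 1 in medium. Without it, the medians were 1.84 with AH236 and 1.82 with DMSO, and 55.1% of the genes had the larger rise with AH236 (48.2% of all genes). For the lowered genes it was as large without that library, at 71.4% (51.8% of all genes) and medians of -1.36 and -1.19. With library totals alone the shares were 67.9% of the raised genes, against 45.4% of all genes, and 71.4% of the lowered genes, against 54.6% of all genes.

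Over 12112 genes averaging 1 log2 CPM or more, the SD of the AH236 log2 fold changes was 0.79, against 0.69 in DMSO, 0.67 in IS141 and 0.74 in AH609 cultures. The Pearson r of the AH236 changes with these, over genes and not over independent replicates, was 0.95, 0.954 and 0.973 in that order. Without DMSO replicate 1 in medium the DMSO changes had an SD of 0.76 and an r of 0.96 with the AH236 changes, whose SD was still 0.79.

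Tests of the difference itself called few genes. The AH236 change differed from the mean change of the 3 other treatments for 218 of 15908 genes (1.37%; edgeR adjusted p under 0.05), with 158 higher (0.993%) and 60 lower (0.377%). Most of these differences were small, with a median size of 0.39 on the log2 scale, and 13 were at least 2-fold higher and 1 at least 2-fold lower. For 124 of the genes AH236 cultures had a larger rise and for 37 a larger fall than the mean of the others. A smaller rise was found for 9 and a smaller fall for 13, and 35 had opposite signs, of which 17 were also called in the AH236 comparison. Of the 218 genes, 91 also differed between AH236 and the mean of the other treatments in medium (4.82% of all genes were called there) and 132 in glutamate (7.71%), with 19 in both and 14 in neither. These contrasts share libraries with the difference of changes and are given as a description of it.

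**Figure D4:**
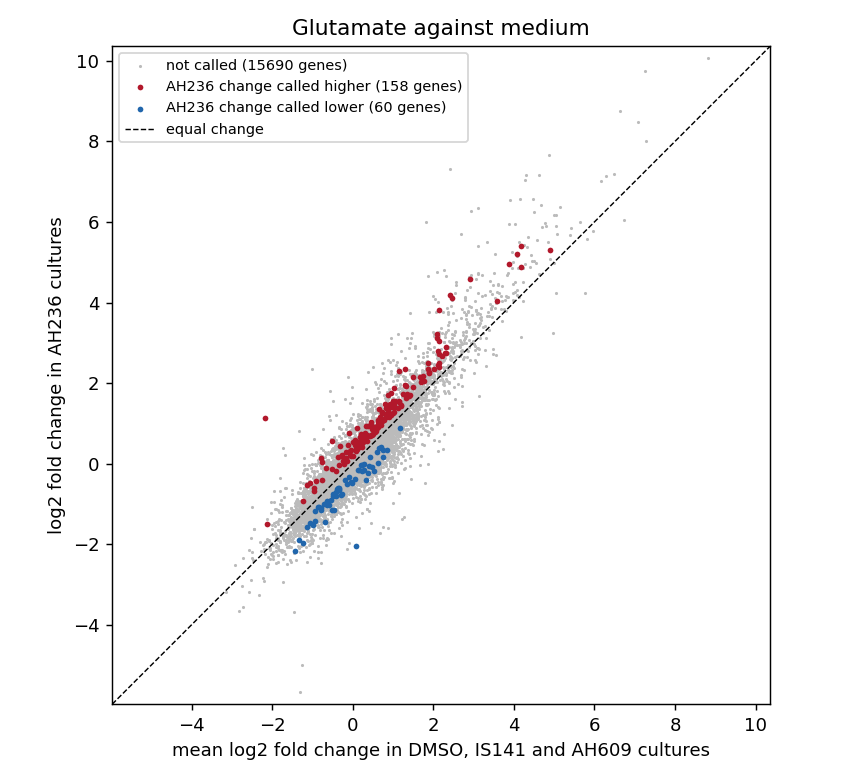
Log2 fold change in glutamate against medium in AH236 cultures (vertical axis) and its mean in DMSO, IS141 and AH609 cultures (horizontal axis), 1 point per gene, with the dashed line at equal change. Genes whose AH236 change was called higher (158, red) or lower (60, blue) than that mean are coloured. The median size of their difference was 0.39 on the log2 scale, and some uncalled genes lie farther from the line. Most points lie close to the line.

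Single libraries moved these counts. Without any 1 of the 6 AH236 libraries 70 to 91 genes were higher and 14 to 31 lower. Without DMSO replicate 1 in medium 443 were higher and 196 lower, and without DMSO replicate 2 or 3 in medium 237 and 238 were higher. The lower genes numbered 91 without DMSO replicate 2 in medium. They numbered 29 to 39 without any 1 of 8 other libraries, namely replicates AH609 medium 1 and 2, AH609 glutamate 2 and 3, IS141 medium 1 and 3, IS141 glutamate 2 and DMSO glutamate 1. The genes with a larger rise with AH236 ranged from 50, without AH236 medium replicate 1 or AH236 glutamate replicate 3, to 332 without DMSO medium replicate 1. Those with a larger fall ranged from 8, without AH236 medium replicate 1, to 114 without DMSO medium replicate 1. Those with opposite signs ranged from 17 to 99, with the highest count again without DMSO medium replicate 1. Higher genes outnumbered lower ones under each of these settings.

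Against each treatment singly, the AH236 change differed from that in DMSO cultures for 246 genes (1.55%; edgeR adjusted p under 0.05), 140 higher and 106 lower. From that in IS141 cultures it differed for 300 genes (1.89%), 221 higher and 79 lower. From that in AH609 cultures 0 genes were called by edgeR, where 1060 genes (6.66%) had an unadjusted p under 0.05 and DESeq2 called 33. Without DMSO replicate 1 in medium these counts were 496, 961 and 93. The AH609 count thus does not show that AH236 and AH609 cultures responded alike. For DMSO the count was 77 to 163 without any 1 AH236 library or without DMSO glutamate replicate 1 or 2, 487 without DMSO medium replicate 2 and 385 without DMSO medium replicate 3. For IS141 it was 137 to 199 without AH236 medium replicate 1, 2 or 3, AH236 glutamate replicate 3, IS141 medium replicate 3 or IS141 glutamate replicate 3. For AH609 it was 2 without AH609 glutamate replicate 1, 3 without AH609 medium replicate 3 and 1 without DMSO medium replicate 2.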

How the data were processed

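The deposited table held unnormalized counts, all whole numbers, for Ensembl rat genes, with 32754 rows, of which 25683 had at least 1 count. Per the submitters' processing notes, the software included RSEM 1.3.3, STAR 2.7.8a, cutadapt 2.3, FastQC 0.11.8 and bcl2fastq, and the genome was Rnor_6.0. RSEM estimates counts, so these may be rounded, and genes that share reads are uncertain. The sources used here give neither strand setting nor annotation release.

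Tests used edgeR 4.0.16 under R 4.3.3 (filterByExpr, TMM, robust quasi-likelihood F test, 1 mean per group, all 24 libraries). P-values were Benjamini-Hochberg adjusted over 15908 genes. The code was also run on counts simulated from its own fit, which cannot check the scaling or the independence of the libraries. Each SE is the log2 fold change over the square root of its F. Levels are TMM-scaled CPM. Log2 CPM used a prior count of 2.

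A pair of AH236 glutamate titles carried the number 2, and the later library is called replicate 3. The 6 replicate pairs within the AH236 groups, the pairs compared, all differed by more than sampling noise (chi-square per degree of freedom 4.82 to 15.0). Members and lists were chosen with earlier results of these data known. The 36 gene lists (612 symbols), cell markers among them, gave no result, because 0 IDs matched a symbol in the RefSeq table used. The rule then named the 2 largest rises and the 2 largest falls. No sequence was printed for the same reason. Alternatives were DESeq2 1.42.0, RLE or library-total scaling, no filter, the compared groups alone, the title number as a block and leaving out libraries.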

Additional observations from a re-analysis of the deposited data

Results flagged for a closer look

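The change with glutamate in AH236 cultures differed from the mean change of the DMSO, IS141 and AH609 cultures for 218 genes by the test of that difference (edgeR adjusted p under 0.05). It differed from the change in DMSO cultures for 246 genes and from that in IS141 cultures for 300. For ENSRNOG00000029264 the AH236 fall differed from the DMSO fall by -1.76 on the log2 scale (edgeR adjusted p = 0.015). The difference stayed called under every alternative run and ranged from -1.96 to -1.47 over them. For ENSRNOG00000020009 the AH236 rise exceeded the IS141 rise by 1.79 (edgeR adjusted p = 0.000705), with a range of 1.63 to 1.88 over the alternatives, all of them called. Both genes were chosen for large AH236 changes, which favours such differences. The alternatives reuse the same libraries and are not independent of the main test.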

How the results depend on the processing

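Scaling by library totals alone moved the count of genes higher in glutamate to 2971 and falls of at least 2-fold to 1614. Genes were called higher in 4361 to 4974 and lower in 4604 to 5215 with any 1 of the 24 libraries left out, with 1391 to 1562 rises and 939 to 997 falls of at least 2-fold. The difference of the AH236 change from the mean of the others gave 566 genes higher and 196 lower when the DMSO libraries were left out, and 291 and 111 with DESeq2. With any 1 library left out it gave 70 to 443 higher and 14 to 196 lower. Against DMSO alone 77 to 496 genes were called with 1 library left out and 429 with DESeq2. Against IS141 alone the counts were 137 to 961 with 1 library left out, 1066 without the DMSO libraries and 472 with DESeq2. Against AH609 alone they were 0 to 93 with 1 library left out, 10 with no filter, 103 without the DMSO libraries and 33 with DESeq2. The cause was not tested. The AH236 changes of the 4 named genes kept their direction and their call under all alternatives run.

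Whether the title numbers pair the AH236 libraries stayed undecided, since 3 weak correlations cannot settle it. Deviations from the group means correlated by 0.01, 0.08 and 0.05 for the same numbers and by -0.08 to 0.04 for different numbers. AH236 medium replicates 2 and 3 correlated best with their own number, and AH236 medium replicate 1 with another. With the replicate block 4673 genes were higher and 4960 lower, and the difference of changes gave 137 and 48. Exchanging the doubtful numbers 2 and 3, an alternative chosen after seeing the data like the leaving out of single DMSO, IS141 and AH609 libraries (DMSO medium replicate 1 excepted), gave 4668 and 4965. Of the genes below 0 log2 CPM, which have the fewest counts, 29.2% were called, and the effect of depth on that share was not tested.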

Other observations

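The 100 most abundant genes of each library held 24.7%, 23.7% and 25.0% of its counts in AH236 medium and 26.0%, 26.0% and 26.9% in AH236 glutamate. The groups did not overlap, and the exact permutation test gave p = 0.1 (two-sided), the smallest possible with 3 against 3 libraries. The 10 called genes with the largest gain in CPM held 4.48% to 4.97% of the counts in medium and 6.43% to 7.06% in glutamate. Only 2 of the 10 rose at least 2-fold, and their mean level in medium ran from 10.9 to 10718 CPM, so most were abundant genes with modest rises. One of the 10 was ENSRNOG00000020009, whose log2 fold change was 7.20. The 10 called genes with the largest loss fell from between 1.77% and 1.94% of the counts to between 1.22% and 1.26%, and 0 of them fell at least 2-fold. Both sets of 10 were chosen by these differences, which are therefore a description.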
